A study of Homo sapiens with 6 samples.

Results

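The SPRY genes SPRY1 to SPRY4, the SPRED genes SPRED1 to SPRED3 and NF1 encode proteins that hold back RAS signalling, and their transcripts were followed in leukaemia cells that had been given extra SPNS2. The 8 genes were taken by symbol through their Ensembl gene IDs, each had 1 row, and they are 8 of the 34371 rows in the count table. They are SPRY1 (ENSG00000164056.11, chromosome 4), SPRY2 (ENSG00000136158.12, chromosome 13), SPRY3 (ENSG00000168939.12, chromosome X), SPRY4 (ENSG00000187678.10, chromosome 5), SPRED1 (ENSG00000166068.13, chromosome 15), SPRED2 (ENSG00000198369.10, chromosome 2), SPRED3 (ENSG00000188766.12, chromosome 19) and NF1 (ENSG00000196712.18, chromosome 17). ME-1 is an established human line from an acute myeloid leukaemia with the CBFB::MYH11 fusion gene. In the 3 SPNS2 libraries the cells carried a vector that overexpresses SPNS2, an exporter of sphingosine-1-phosphate, and in the 3 CTRL libraries they carried the same kind of vector left empty. Cells of both groups had gone through selection for the vector, and polyadenylated RNA was sequenced. The sources used here do not give the promoter of the vector, the selecting agent or the time after transduction. Nothing in the labels says whether the 3 libraries of 1 group are separate cultures, so p-values cover the spread between these libraries, which may be technical. The title of the series names MAPK signalling and SPNS2. The comparison of SPNS2 with empty vector libraries gives transcript levels only, and the activity of RAS or ERK was not measured in these libraries.

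RAS proteins switch on when they bind GTP, and they then activate the RAF, MEK and ERK kinases of the MAPK cascade. SPRY (Sprouty) proteins are transcribed in response to ERK activity and act back on receptor tyrosine kinase signalling, so they form a feedback loop. SPRED proteins share the cysteine-rich Sprouty domain, carry an EVH1 domain, and bring neurofibromin, the product of NF1, to the membrane, where neurofibromin speeds GTP hydrolysis by RAS. In blood cells SPRED1 is known to bind the receptor KIT, and loss of NF1 is known from myeloid leukaemias of childhood.

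The 250 bases before the first listed start of 4 genes are shown because these genes carry the main results: SPRY4 had the largest fall, SPRED2 the fall with the smallest p, SPRY2 the highest level of its family per length, and SPRY3 the only rise. The sequences are from RefSeq on GRCh38.p14, 5′ to 3′ on the strand of the gene, and capitals mark a motif match. The windows are chr5:142324248-142324497, minus strand; chr2:65432600-65432849, minus strand; chr13:80341127-80341376, minus strand; and chrX:155612336-155612585, plus strand.
SPRY4: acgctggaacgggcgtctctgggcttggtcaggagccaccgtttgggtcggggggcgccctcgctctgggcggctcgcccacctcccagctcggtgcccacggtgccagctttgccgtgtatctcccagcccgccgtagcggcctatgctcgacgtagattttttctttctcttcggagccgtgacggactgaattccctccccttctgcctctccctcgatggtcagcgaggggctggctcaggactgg
SPRED2: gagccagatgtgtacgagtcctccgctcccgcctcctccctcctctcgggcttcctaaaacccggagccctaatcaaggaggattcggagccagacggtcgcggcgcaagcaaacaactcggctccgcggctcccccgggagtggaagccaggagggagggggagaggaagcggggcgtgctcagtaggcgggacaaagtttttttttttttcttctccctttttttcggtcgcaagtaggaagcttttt
SPRY2: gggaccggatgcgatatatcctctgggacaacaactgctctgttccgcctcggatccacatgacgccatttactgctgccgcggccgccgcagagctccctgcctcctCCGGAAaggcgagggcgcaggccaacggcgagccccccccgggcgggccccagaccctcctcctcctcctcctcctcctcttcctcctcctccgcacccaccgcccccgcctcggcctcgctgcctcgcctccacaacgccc
SPRY3: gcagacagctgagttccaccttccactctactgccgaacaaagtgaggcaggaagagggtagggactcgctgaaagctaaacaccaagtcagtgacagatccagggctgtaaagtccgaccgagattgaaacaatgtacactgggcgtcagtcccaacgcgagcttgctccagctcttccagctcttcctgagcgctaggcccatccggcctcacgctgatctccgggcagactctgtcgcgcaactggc
The windows of all 8 genes were searched on both strands for CCGGAA, a form of the sites bound by ETS factors, and for TGANTCA, the AP-1 site. The search also covered TGACGTCA, the cyclic AMP response element, and the CArG box bound by serum response factor. Shorter or other forms of ETS sites, such as GGAA alone, were not searched for. SPRY2 held 1 CCGGAA, which began 142 bases before its start, NF1 held 1 TGACGTCA, which began 166 bases before its start, and SPRED3 held 1 AP-1 site, which began 60 bases before the start used. Among 27195 RefSeq promoters of the same length, 14.8% held CCGGAA, 6.55% held TGANTCA, 1.77% held TGACGTCA and 1.15% held a CArG box. No match was found in the windows of SPRY1, SPRY3, SPRY4, SPRED1 and SPRED2, which says only that these letters are not in those bases. GC content ranged from 45.6% in the SPRY1 window to 78.4% in the SPRED1 window, beside a median of 58% over all promoters.

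Library totals lay between 31361562 and 33540256 counts for SPNS2 and between 28605187 and 38489992 counts for the empty vector. The vector SPNS2 sequence had 25283, 24792 and 25752 counts in the SPNS2 libraries, against 9, 3 and 0 in the empty vector libraries. Levels are given in CPM, the counts relative to the library total after TMM scaling. Of 5 myeloid markers, MPO, SPI1, CEBPA and CD33 were above 1 CPM in every library, led by MPO at 25993 ± 759 CPM with SPNS2 and 26129 ± 221 CPM with the empty vector (SD, n = 3 each). AZU1, the fifth, had 386 counts in SPNS2 library 2 and 0 in the other libraries, and CD33 was lower, at 22.9 ± 1.12 CPM with SPNS2 and 37.4 ± 0.0931 CPM with the empty vector (SD, n = 3 each). MYH11, a fusion partner, was at 0.224 ± 0.188 CPM with SPNS2 and 0.180 ± 0.0911 CPM with the empty vector (SD, n = 3 each). MYH11 was thus near 0 in both groups. CBFB, the other gene of the fusion, averaged 54.6 CPM with SPNS2 and 52.1 CPM with the empty vector. Of 18 markers of T, B, erythroid, epithelial, fibroblast and endothelial cells, 15 were below 1 CPM on average. The summed epithelial markers ranged from 141 to 144 CPM with SPNS2 and from 119 to 128 CPM with the empty vector, nearly all of it EPCAM. The part of these markers in the results was not tested. In bulk RNA, fewer cells of a type and less RNA per cell cannot be told apart.

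SPNS2 libraries had less transcript of 6 of the 8 genes, namely SPRY1, SPRY2, SPRY4, SPRED1, SPRED2 and NF1, while SPRY3 rose and SPRED3 did not pass the test (edgeR quasi-likelihood test, adjusted p under 0.05 over all features). Of the 13308 features tested, 12.6% were called lower and 11.9% higher, 24.5% in all. Among the 8 genes, 5 were called lower by more than 0.3 on the log2 scale, as were 2.95% of tested features. This cut was not part of the planned tests. SPRY2 passed it narrowly, at -0.31, and was at -0.27 without SPNS2 library 1. The sizes ran from -1.56 on the log2 scale for SPRY4 to -0.14 for NF1 among the falls, and the rise of SPRY3 was 1.12. The libraries of the groups did not overlap for the 7 called genes. This was also so for 20.3% of tested features, called or not, in the lower direction and 19.8% in the higher, 40.1% in all. The 7 genes were called on these same libraries, so the lack of overlap is not further support. How often a feature was called depended on its level: 1.84% of features with a mean of up to 1 CPM were called lower, against 16.8% of those between 30 and 100 CPM. SPRY4 and SPRED3 lay in the lowest class and NF1 in the class between 30 and 100 CPM. All 8 genes passed the filter on low counts, but SPRY4 reached it through the empty vector libraries, since 2 of 3 SPNS2 libraries were above the 0.308 CPM that 3 libraries must reach.

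**Figure D1:**
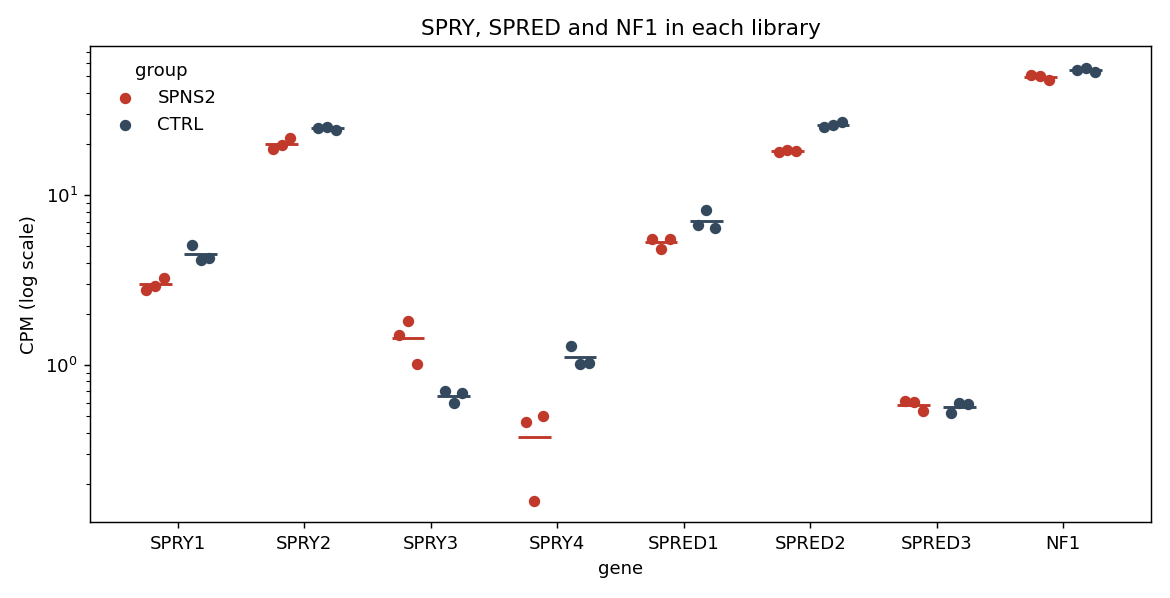
Level of each gene in CPM on a log axis, with 1 point per library (SPNS2 in red, CTRL, the empty vector, in dark blue) and a line at the mean of each group of 3. The SPNS2 points lie below the CTRL points for SPRY1, SPRY2, SPRY4, SPRED1, SPRED2 and NF1, above them for SPRY3, and among them for SPRED3.

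SPRY4, a feedback inhibitor whose transcript is induced by ERK, was scarce in these cells. It had 15, 5 and 17 counts in the SPNS2 libraries, or 0.463, 0.159 and 0.504 CPM, against 50, 29 and 33 counts, or 1.30, 1.02 and 1.02 CPM, in the empty vector libraries. Every SPNS2 library lay below every empty vector library, and SPNS2 library 2 was the lowest. This gave a log2 fold change of -1.56 (SE 0.339, edgeR adjusted p = 0.00684), which ranked 17 from the lowest over all features tested. The rank is a description only, since SPRY4 passed the filter through the empty vector libraries, where it was higher. Fold changes are also imprecise at this level, with a median SE of 0.335 over features with a mean of up to 1 CPM. Pooled over libraries, the SPNS2 to empty vector ratio came to 0.338 (exact 95% interval 0.227 to 0.494; reads are not independent molecules, so this interval covers counting error only). The log2 fold change of SPRY4 was -1.20 without SPNS2 library 2 and -1.83 without SPNS2 library 3, and the call held with each library left out. GENCODE 29 lists an antisense gene, SPRY4-AS1, which was not analysed here.

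SPRY1, which dampens receptor tyrosine kinase signals to RAS, had 2.78, 2.93 and 3.26 CPM with SPNS2, against 5.11, 4.18 and 4.28 CPM with the empty vector. The groups were apart, and empty vector library 1 was the highest. On the log2 scale SPRY1 changed by -0.60 (SE 0.128, edgeR adjusted p = 0.00595). SPRY2, which binds the adaptor GRB2 and the ubiquitin ligase CBL, had 18.8, 19.6 and 21.7 CPM with SPNS2, against 25.02, 25.3 and 24.3 CPM with the empty vector. Its change of -19.4% in mean CPM, beside -33.9% for SPRY1, rested on far more reads, 1958 with SPNS2 and 2468 with the empty vector. For SPRY2 the log2 fold change was -0.31 (SE 0.0574, edgeR adjusted p = 0.00269).

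SPRY3 went the other way. This family member lies in a pseudoautosomal region shared by the X and Y chromosomes, and it had a single row in the table. It had 49, 57 and 34 counts with SPNS2, or 1.51, 1.81 and 1.01 CPM, against 27, 17 and 22 counts, or 0.700, 0.597 and 0.683 CPM, with the empty vector. The lowest SPNS2 library, number 3, still lay above the highest empty vector library, and the spread was wider with SPNS2. SPRY3 thus had a log2 fold change of 1.12 (SE 0.254, edgeR adjusted p = 0.00862), which ranked 86 from the highest. Pooled over libraries, its SPNS2 to empty vector ratio came to 2.17 (exact 95% interval 1.61 to 2.96, for counting error only, while its CPM varied by 28.2% of the mean between SPNS2 libraries). Left-out libraries moved the log2 fold change between 0.92 and 1.32, and it passed in each of those fits, with adjusted p-values up to 0.0437.

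SPRED2, which recruits neurofibromin and thereby restrains RAS, had the most uniform fall. Its level was 18.01, 18.4 and 18.2 CPM in the SPNS2 libraries, against 25.2, 25.9 and 27.1 CPM in the empty vector libraries. The gap between the groups was far wider than the spread within them. Its log2 fold change was -0.52 (SE 0.0478, edgeR adjusted p = 3.54e-05), and its p-value ranked 111 from the smallest of the 13308. SPRED1, the KIT-binding member, had 5.49, 4.84 and 5.51 CPM with SPNS2, against 6.66, 8.15 and 6.42 CPM with the empty vector. The groups were apart, and empty vector library 2 stood above the other two of its group. SPRED1 had a change of -0.42 on the log2 scale (SE 0.113, edgeR adjusted p = 0.0202). That call was lost without SPNS2 library 2, at -0.36 (adjusted p = 0.0759), and without empty vector library 2, at -0.31 (adjusted p = 0.0949).

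SPRED3, the least abundant SPRED transcript per length, had 20, 19 and 18 counts with SPNS2, or 0.617, 0.605 and 0.534 CPM, against 20, 17 and 19 counts, or 0.519, 0.597 and 0.589 CPM, with the empty vector. The groups overlapped. Its fitted change was 0.05 on the log2 scale (SE 0.258, edgeR adjusted p = 0.922), with a 95% interval of -0.52 to 0.61. The lower end of that interval equals the change of SPRED2 to 2 decimals, so with 57 pooled counts for SPNS2 and 56 for the empty vector most smaller changes were not detectable at this depth.

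NF1, the RAS GTPase activating protein that SPRED proteins recruit, changed least of the called genes. It had 50.9, 50.3 and 47.8 CPM with SPNS2, against 54.5, 56.4 and 52.8 CPM with the empty vector, so the groups were apart by a small margin. Its log2 fold change was -0.14 (SE 0.0376, edgeR adjusted p = 0.0230), a change of -8.98% in mean CPM. The NF1 call was lost without SPNS2 library 3 (adjusted p = 0.0850), without empty vector library 1 (adjusted p = 0.0521) or its library 2 (adjusted p = 0.0891), at log2 fold changes of -0.11, -0.14 and -0.11. GENCODE 29 places EVI2A, EVI2B and OMG inside NF1 on the opposite strand. Both tested genes of these 3, EVI2A and EVI2B, rose: EVI2A averaged 49.9 ± 3.24 CPM with SPNS2 and 40.3 ± 1.22 CPM with the empty vector, and EVI2B 52.4 ± 0.785 CPM with SPNS2 and 43.7 ± 3.54 CPM with the empty vector (SD, n = 3 each). Their log2 fold changes were 0.31 (adjusted p = 0.000804) and 0.27 (edgeR adjusted p = 0.00316), and both passed in all 15 alternative fits. These genes lie inside an NF1 intron, and EVI2A and EVI2B went in the opposite direction to NF1. The library kit marks strand, but the sources used here do not say how strand entered the counting. Whether reads of NF1 and of these genes were fully separated was not tested. The table also had 12 rows of NF1 pseudogenes, which held 4 counts over the 6 libraries, against 10255 for NF1.

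**Figure D2:**
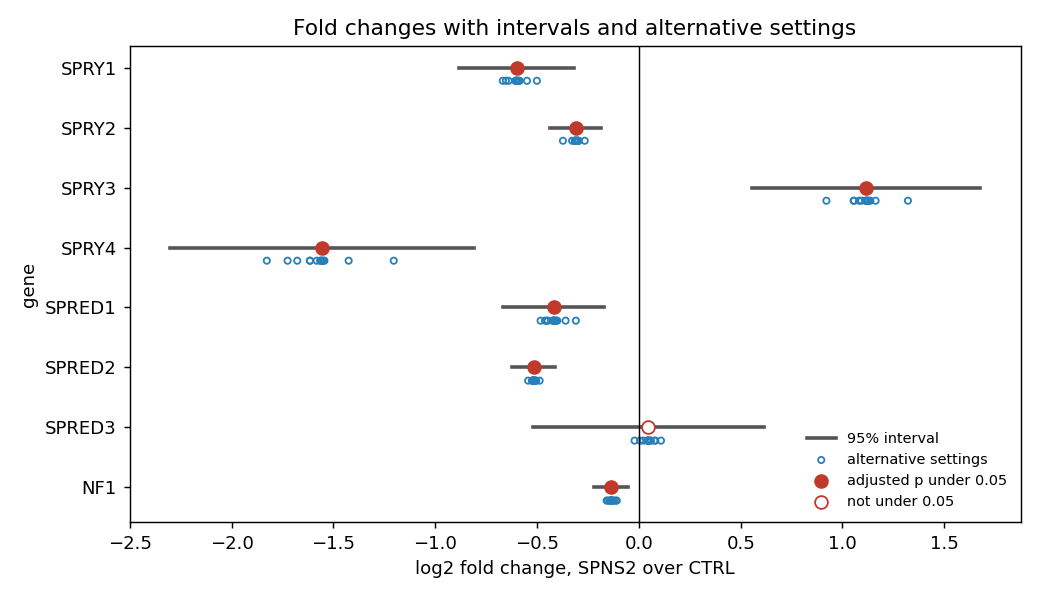
Log2 fold change of each gene, SPNS2 over CTRL (empty vector), with its 95% interval as a bar (filled points have an adjusted p under 0.05) and open blue circles for the alternative settings and left-out libraries. The circles stay on the side of the main value for the 7 called genes, whereas those of SPRED3 lie on both sides of 0.

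Per length of transcript, SPRY2 was the most abundant of the 8, at 7.40 ± 0.555 CPM per kb with SPNS2 and 9.18 ± 0.201 CPM per kb with the empty vector (SD, n = 3 each; the longest GENCODE 29 coding transcript was taken as length). SPRED2 followed at 4.45 ± 0.0509 CPM per kb with SPNS2 and 6.36 ± 0.243 CPM per kb with the empty vector. NF1 came next at 3.998 ± 0.131 and 4.39 ± 0.146 CPM per kb with SPNS2 and with the empty vector. SPRY2 stood apart from SPRED2 and SPRED2 from NF1 in every library of both groups. With the median transcript length in place of the longest, a choice made after the values were seen, SPRED2 and NF1 stood above SPRY2, so the order of these 3 levels depends on which isoforms the cells make. SPRY1 ranked below them at 1.15 ± 0.0953 CPM per kb with SPNS2 and 1.73 ± 0.195 CPM per kb with the empty vector, and SPRED1 at 0.679 ± 0.0493 and 0.910 ± 0.120 CPM per kb with SPNS2 and with the empty vector.

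SPRY3, SPRED3 and SPRY4 were the scarcest of the 8 genes per length of the longest transcript. Per length, SPRY3 was at 0.160 ± 0.0451 CPM per kb, SPRED3 at 0.122 ± 0.00940 and SPRY4 at 0.0760 ± 0.0381 CPM per kb with SPNS2 (SD, n = 3). With the empty vector, SPRY4 was at 0.225 ± 0.0322, SPRED3 at 0.119 ± 0.00905 and SPRY3 at 0.0732 ± 0.00612 CPM per kb (SD, n = 3). On this scale SPRY3 was above SPRY4 in each SPNS2 library and below it in each empty vector library, with SPRED3 ranked between them in the group means. With the median transcript length this order did not hold in each SPNS2 library: SPRY3 and SPRY4 had means of 0.160 and 0.158 CPM per kb with SPNS2, SPRY4 was the higher in SPNS2 libraries 1 and 3, and SPRY4 remained above SPRY3 with the empty vector, at 0.468 and 0.0732 CPM per kb.

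Summed over the family, SPRY transcripts were at 8.78 ± 0.627 CPM per kb with SPNS2 and 11.2 ± 0.328 CPM per kb with the empty vector (SD, n = 3 each), a difference of -21.7%. SPRED transcripts summed to 5.25 ± 0.0166 CPM per kb with SPNS2 and 7.39 ± 0.249 CPM per kb with the empty vector (SD, n = 3 each), a difference of -29.0%. Neither sum overlapped between the groups, and an exact two-sided permutation test over the 6 libraries gave p = 0.1 for each, the smallest it can give with 3 against 3. SPRY2 made up 84.3 ± 0.298% of the SPRY sum with SPNS2 and 81.9 ± 1.65% with the empty vector. SPRY1 made up 13.04 ± 0.155% with SPNS2 and 15.4 ± 1.39% with the empty vector, and SPRY4 0.862 ± 0.423% with SPNS2 and 2.01 ± 0.236% with the empty vector. SPRY3 made up 1.85 ± 0.599% with SPNS2, against 0.653 ± 0.0556% with the empty vector. Within the SPRED sum, SPRED2 held 84.7 ± 0.890% with SPNS2 and 86.1 ± 1.58% with the empty vector, and these shares overlapped. SPRED3 held 2.33 ± 0.186% with SPNS2 and 1.61 ± 0.0724% with the empty vector, with no overlap. The directions of these differences were the same with the median transcript length.

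**Figure D3:**
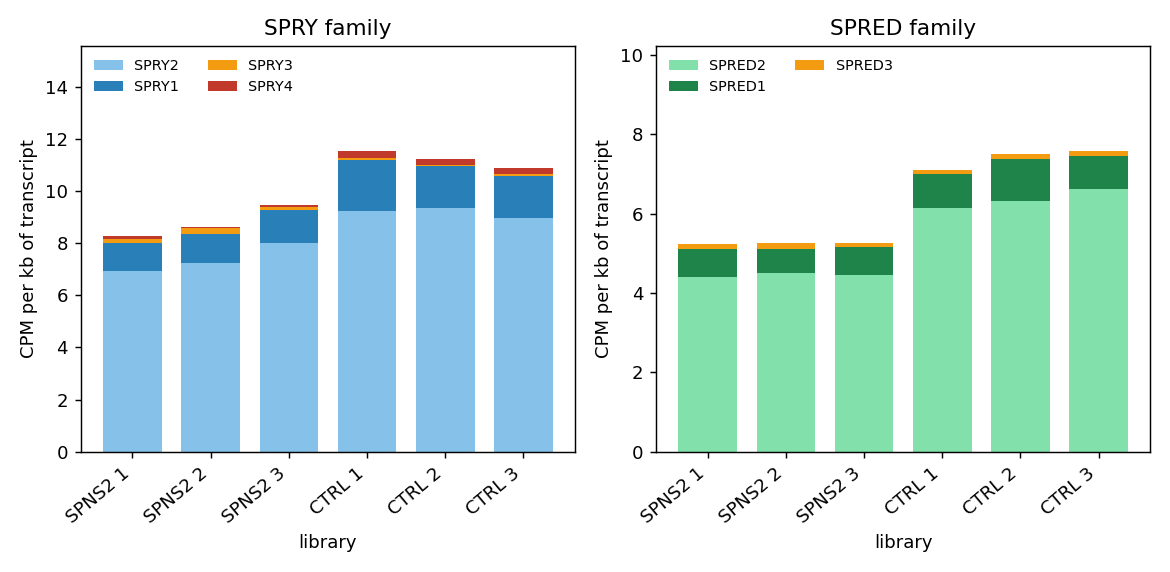
Stacked bars of CPM per kb of transcript in each library for the SPRY family (left) and the SPRED family (right), with the 3 SPNS2 libraries left of the 3 CTRL (empty vector) libraries. The SPNS2 bars of both families are lower, and SPRY2 and SPRED2 make up most of every bar.

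Whether the genes moved by different amounts was asked with the log2 ratio of 2 genes within each library, for 8 pairs. The ratio of SPRY4 to SPRY2 was lower by 1.42 on the log2 scale in SPNS2 libraries, at -5.91 ± 0.902 with SPNS2 and -4.49 ± 0.194 with the empty vector (SD, n = 3 each). The ratio of SPRY4 to SPRY1 had a difference of -1.13, and that of SPRY1 to SPRY2 a difference of -0.28, with -2.75 ± 0.0121 in SPNS2 and -2.46 ± 0.157 in empty vector libraries (SD, n = 3 each). SPRY3 to SPRY2 differed by 1.41 and SPRED3 to SPRED2 by 0.56. Against NF1, SPRED2 differed by -0.38 and SPRED1 by -0.28. These 7 ratios did not overlap between the groups, and each had an exact permutation p = 0.1 (two-sided, 0.114 adjusted over the 8 pairs), the smallest that 3 against 3 allows, so no pair could pass a threshold of 0.05. Without SPNS2 library 2 the difference was -0.89 for SPRY4 to SPRY2 and -0.61 for SPRY4 to SPRY1. The ratio of SPRED2 to SPRED1 overlapped, with a difference of -0.10 (exact permutation p = 0.7, also after adjustment).

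A list of 13 other genes known to be induced by ERK signalling was set beside the SPRY and SPRED genes. Of these, 9 were tested, and 6 were called lower and 0 higher by edgeR (0 higher at an unadjusted p under 0.05, and 0 higher by DESeq2 and limma), beside 12.6% called lower and 11.9% called higher over all tested features. The median log2 fold change of the list was -0.425, beside 0.00263 over all tested features. ETV5, an ETS transcription factor, and DUSP6, a phosphatase of ERK, had log2 fold changes of -1.49 and -1.04, the first close to the value of SPRY4. DUSP4, another phosphatase of the kinases, fell by 0.70, FOSL1, an AP-1 subunit, by 0.43, CCND1, a cyclin of G1, by 0.33 and SPHK1, a kinase that makes sphingosine-1-phosphate, by 0.27 on the log2 scale. CCND1 did not pass without SPNS2 library 1 or 3 or without empty vector library 2 or 3, with adjusted p-values up to 0.146, nor by DESeq2 or with the replicate number as a block. EGR1 changed by -0.73 on the log2 scale and narrowly did not pass (edgeR adjusted p = 0.0514). Among the alternative fits, EGR1 passed only with no filter on low counts and without SPNS2 library 3. DUSP5 and PHLDA1, at -0.04 and -0.09, did not pass (edgeR adjusted p = 0.793 and 0.821). These lists were chosen with results of these counts known, so their directions are not independent evidence.

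NF1 has relatives that also speed GTP hydrolysis by RAS. Of 8 tested genes for these other RAS GTPase activating proteins, 0 were called lower and 4 higher by edgeR, beside 12.6% and 11.9% over all tested features, with a median log2 fold change of 0.08. At an unadjusted p under 0.05, 1 was lower. DESeq2 called 0 lower and 2 higher, and limma 0 lower and 4 higher. RASAL3 averaged 48.2 ± 1.73 CPM with SPNS2 and 43.3 ± 1.01 CPM with the empty vector, and RASA1 32.2 ± 0.747 CPM with SPNS2 and 28.9 ± 1.57 CPM with the empty vector (SD, n = 3 each). RASAL1 rose by 0.67 and RASA4 by 0.11 on the log2 scale, though RASA4 and RASA4B are near-identical and the split of reads between them is uncertain. RASAL1 was scarce, at 1.45 ± 0.143 CPM with SPNS2 and 0.902 ± 0.152 CPM with the empty vector (SD, n = 3 each). Of 15 alternative fits, the call was lost in 6 for RASAL1, 6 for RASA1, 5 for RASA4 and 2 for RASAL3. The number called higher depended on single libraries: 0 without SPNS2 library 2, 1 without SPNS2 library 1 or empty vector library 2, and 2 without empty vector library 1 or 3. Without empty vector library 3, 1 member was called lower. RASA3 was not analysed here.

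Of the RAS genes and exchange factors 2 of 12 were called, and of the adaptors upstream of RAS 3 of 15, beside 24.5% of all tested features. Among 12 tested RAS genes and exchange factors, 0 were called lower (1 lower at an unadjusted p under 0.05, and 0 lower by DESeq2 and limma) and 2 higher: RASGRP4, an exchange factor of myeloid and mast cells, with a log2 fold change of 0.23 (edgeR adjusted p = 0.00115), and SOS2 with 0.14. SOS2 lost its call by DESeq2 and in 5 of the 6 fits that left out a library (all but that without empty vector library 2), whereas RASGRP4 passed in all 15 alternative fits. NRAS was at 74.2 ± 1.93 CPM with SPNS2, against 72.0 ± 3.01 CPM with the empty vector (SD, n = 3 each), and did not pass. Among 15 tested adaptors, the rises were GAB3 (0.16) and GRB2 (0.08) and the fall was DOK1 (-0.11). GRB2 lost its call without SPNS2 library 1 or 3 or empty vector library 3, with the replicate block and with no filter on low counts. GAB3 lost it without SPNS2 library 2 and by DESeq2, and DOK1 without SPNS2 library 1 or 2 or empty vector library 1, with the block and with upper quartile scaling.

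Of 13 tested binding partners of SPRY or SPRED proteins, 3 rose and 2 fell, beside 11.9% called higher and 12.6% called lower over all tested features. KIT, the receptor that SPRED1 binds, rose to 2286 ± 38.6 CPM with SPNS2, against 1566 ± 21.4 CPM with the empty vector (SD, n = 3 each), a log2 fold change of 0.55 (edgeR adjusted p = 3.68e-08). SIAH2, a ubiquitin ligase that acts on SPRY2, changed by -0.15 on the log2 scale (edgeR adjusted p = 0.00499), and both it and KIT passed in all 15 alternative fits. DYRK1A and TESK1, kinases that bind SPRY2 or SPRY4, rose by 0.15 and 0.18 on the log2 scale. DYRK1A lost its call without SPNS2 library 2 or empty vector library 2. TESK1 lost it without SPNS2 library 1 or 2 or empty vector library 1 or 2, by DESeq2, by limma and with the block. The number called lower was 1 without SPNS2 library 1 or 3 or empty vector library 2 or 3, by DESeq2, with the block, with upper quartile scaling and with library totals alone. Among 8 EVH1 domain genes, the domain SPRED proteins share with ENAH and VASP, ENAH fell by 0.37 and passed in all 15 alternative fits. HOMER2 rose by 0.17 but not without SPNS2 library 1 or 2 or empty vector library 1 or 3, and the other 6 did not pass.

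**Figure D4:**
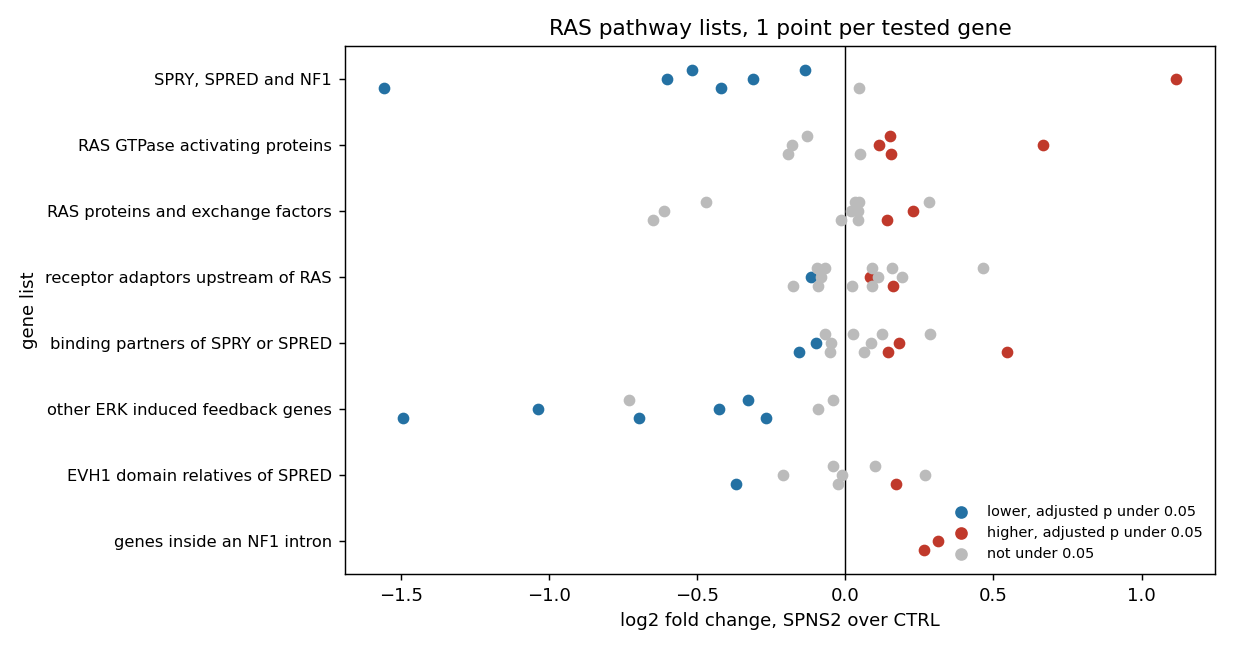
Log2 fold change, SPNS2 over CTRL (empty vector), for every tested gene of 8 lists, 1 row per list and 1 point per gene, in blue where called lower, in red where called higher and in grey where the adjusted p was not under 0.05. The points of the SPRY, SPRED and NF1 row and of the other ERK induced genes lie mostly left of 0, and no other RAS GTPase activating protein was called lower.

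The features whose log2 CPM followed SPRY4 most closely over the 6 libraries were LRG1, NCAPG, PSMC1, ITGAL and PPIA, of 11813 compared. Their Pearson correlations were 0.995 for LRG1, 0.9905 for NCAPG, 0.990 for PSMC1, 0.990 for ITGAL and 0.988 for PPIA, given as a description over libraries that fall into 2 groups. Their log2 fold changes lay between -0.32 and -0.08, far smaller than that of SPRY4, and ITGAL did not pass the test (edgeR adjusted p = 0.0585). The pattern of SPRY4 is itself set by few reads, 5 in SPNS2 library 2.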

How the data were processed

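Polyadenylated RNA of 6 libraries was sequenced with a stranded TruSeq kit, per the labels' protocols. The deposited values are estimated counts for each gene. Salmon is named, with no version, per the submitters' processing notes. The sources used here do not give the genome build, the annotation or how transcripts were summed. The values were whole as deposited, so rounding changed nothing. No columns were left out. Symbols came from a gene name table and GENCODE 29.

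Counts were filtered with filterByExpr (minimum count 10), normalised with TMM, whose factors were 0.993 to 1.01, and passed to the quasi-likelihood test of edgeR 4.0.16 in R 4.3.3, with group as the only term and Benjamini-Hochberg adjustment over 13308 features. Each SE was derived from the fold change and its F statistic. Alternatives used DESeq2 1.42.0, limma 3.58.1, other scalings and filters, a replicate block and left-out libraries. Replicates differed beyond sampling noise (chi-square per degree of freedom 3.11 to 6.09). At these depths 3 counts equal 0.0779 to 0.105 CPM. Code was tested on simulated data.

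The genes and lists were chosen with earlier results of these data known. Named genes were the 8 genes, up to 6 called genes per list with a mean of at least 1 CPM, and the 5 features most like SPRY4. Others named, with values, as not passing were chosen after their values were seen. The lists also count genes that are not reported here by name.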

Additional observations from a re-analysis of the deposited data

How the results depend on the processing

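SPRY1, SPRY2, SPRY3 and SPRED2 kept their direction and passed in all 15 alternative fits, and SPRY4 in the 14 fits that tested it. A filter at a mean of 1 CPM removed SPRY4 and SPRED3, which left 5 of the 8 genes called lower, beside 1639 of 11848 tested features. SPRED1 missed the threshold in 2 and NF1 in 3 fits that left out a library. With single libraries left out, 4 to 6 of the 8 genes were called lower and 1 higher. Beside this, 1167 to 1444 features were called lower and 1079 to 1294 higher, of 13488 to 13525 tested. In all, 2246 to 2738 features were called, against 3263 with all 6 libraries. DESeq2 called 2543 features. SPRED3, never called, ranged from -0.021 without empty vector library 1, a change of sign, to 0.11 without SPNS2 library 3. The cause was not tested.

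The replicate block called 2723 of 13308 features, 1422 lower and 1301 higher. Of the 8 genes it called 6 lower and 1 higher. Same-numbered libraries did not deviate together (correlations 0.0312, 0.0375 and -0.0193), so the numbers were not taken as pairs. Over all alternatives, 5 to 7 of the other ERK induced genes were called lower (against 6). Counts in the other related lists were less stable: 0 to 4 other RAS GTPase activating proteins were called higher (2 under the block and 2 by DESeq2, against 4), 1 to 2 exchange factors higher (against 2), 0 to 1 adaptors lower and 1 to 4 higher (against 1 and 2), 1 to 2 binding partners lower and 1 to 4 higher (against 2 and 3), and 0 to 1 EVH1 genes higher (against 1). An exchange factor list member was called lower in 1 fit, without SPNS2 library 3.

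Depth limits SPRY4, SPRY3 and SPRED3, with 149, 206 and 113 counts over 6 libraries.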
